A study of Mus musculus with 10 samples.

Results

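The genes described here carry or report signalling by bone morphogenetic proteins (BMPs) in heart muscle cells: the receptor-activated Smads Smad1, Smad5 and Smad9, the inhibitory Smads Smad6 and Smad7, and the inhibitors of DNA binding Id1, Id2, Id3 and Id4. These 9 genes were chosen by symbol from the 25239 symbols in each deposited table, with earlier results of these data known. Counts among them, set beside shares of all genes, are therefore descriptions. The study measured RNA by sequencing in cardiomyocytes, the contractile cells of the heart, taken from the atrium or the ventricle of wild-type (WT) mice. No other allele, treatment or age is given for either chamber in the sources used here. Each chamber has 5 libraries, numbered as replicates 1 to 5. Values are normalized reads, that is, read counts divided by a size factor for each library, and all 9 genes had reads in each of the 10 libraries.

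BMPs are secreted ligands that bring together type I and type II receptor kinases, which phosphorylate Smad1, Smad5 and Smad9. These then join Smad4, enter the nucleus and switch on target genes, among them the Id genes and the genes for the inhibitory Smads, which damp the same pathway. Id proteins hold a helix-loop-helix domain without a DNA-binding part and tie up E proteins, the common partners of tissue-specific helix-loop-helix factors. In the heart the pathway is known for its part in valve, conduction system and chamber development.

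The stretches upstream of Smad6 and Smad9 are shown because these genes differed between the chambers and because neither stretch overlaps an annotated transcript of its gene. Both come from the RefSeq promoter table on GRCm38.p6 and give the 250 bases before the start, read along the gene's own strand, for Smad6 chr9:64022060-64022309 (minus strand) and for Smad9 chr3:54755332-54755581 (plus strand). Capitals mark GGCGCC and GGAGCC, GC-rich elements known to be bound by BMP-activated Smads, and the palindrome GTCTAGAC, a Smad-binding element.
Smad6: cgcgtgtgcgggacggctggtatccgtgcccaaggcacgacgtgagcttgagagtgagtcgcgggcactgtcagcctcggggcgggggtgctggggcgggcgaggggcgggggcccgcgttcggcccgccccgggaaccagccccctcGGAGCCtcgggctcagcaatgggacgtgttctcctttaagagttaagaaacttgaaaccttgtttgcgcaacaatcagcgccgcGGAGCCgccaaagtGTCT
Smad9: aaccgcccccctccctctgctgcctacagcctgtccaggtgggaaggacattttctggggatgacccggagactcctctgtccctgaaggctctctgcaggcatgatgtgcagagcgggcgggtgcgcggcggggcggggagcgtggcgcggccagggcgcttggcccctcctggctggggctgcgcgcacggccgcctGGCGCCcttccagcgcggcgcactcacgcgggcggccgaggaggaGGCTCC
The Smad6 stretch holds GGAGCC at 102 to 97 and at 18 to 13 bases before the start, and its last 4 capitals are the first letters of a GTCTAGAC that spans the start. The Smad9 stretch holds GGCGCC at 51 to 46 bases before the start and GGAGCC on the opposite strand, printed as GGCTCC, at 6 to 1 bases before it. The motifs were searched on both strands in all 32851 windows of 300 bases in that table, which run from 250 bases before to 50 after a start. GGCGCC was present in 11.9% of these windows, GGAGCC in 30.8% and GTCTAGAC in 0.213%, so the first pair are common letters in promoters. Windows of 7 of the 9 genes were used, and 6 of the 7 held at least 1 of these motifs, against 37.2% of all windows. A match describes letters and is not evidence of binding. The windows of Id1 and Smad7 were not analysed here.

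Of the 9 genes, 5 were higher in atrial than in ventricular cardiomyocytes and none was called higher in ventricular cells. These were Smad9, both inhibitory Smads, Id1 and Id2, with atrial means 2.02-fold to 4.60-fold the ventricular ones. Over all 12422 genes tested, 14.7% were called, 8.12% toward the atrium and 6.56% toward the ventricle (limma's moderated test on log2(normalized reads + 1), Benjamini-Hochberg adjusted p under 0.05 over all genes tested). The median log2 difference, atrial minus ventricular, was 1.03 over the 9 genes and -0.012 over all genes tested. In the same 5 genes no ventricular value reached the lowest atrial one. Groups without overlap were found in 14.4% of all genes tested (7.84% with the atrium higher and 6.55% with the ventricle higher). On the recovered reads edgeR and DESeq2 each called 5 members toward the atrium as well, where they called 8.83% and 11% of all genes toward the atrium and 7.37% and 9.84% toward the ventricle. The atrial library was the higher of the same-numbered pair in 5 of 5 pairs for 7 of the 9 genes, all but Smad5 and Id4, as for 20.2% of all genes tested. Whether the libraries of a chamber are from different mice is not stated, and the p-values reflect only how much these libraries vary, which may be technical.

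**Figure D1:**
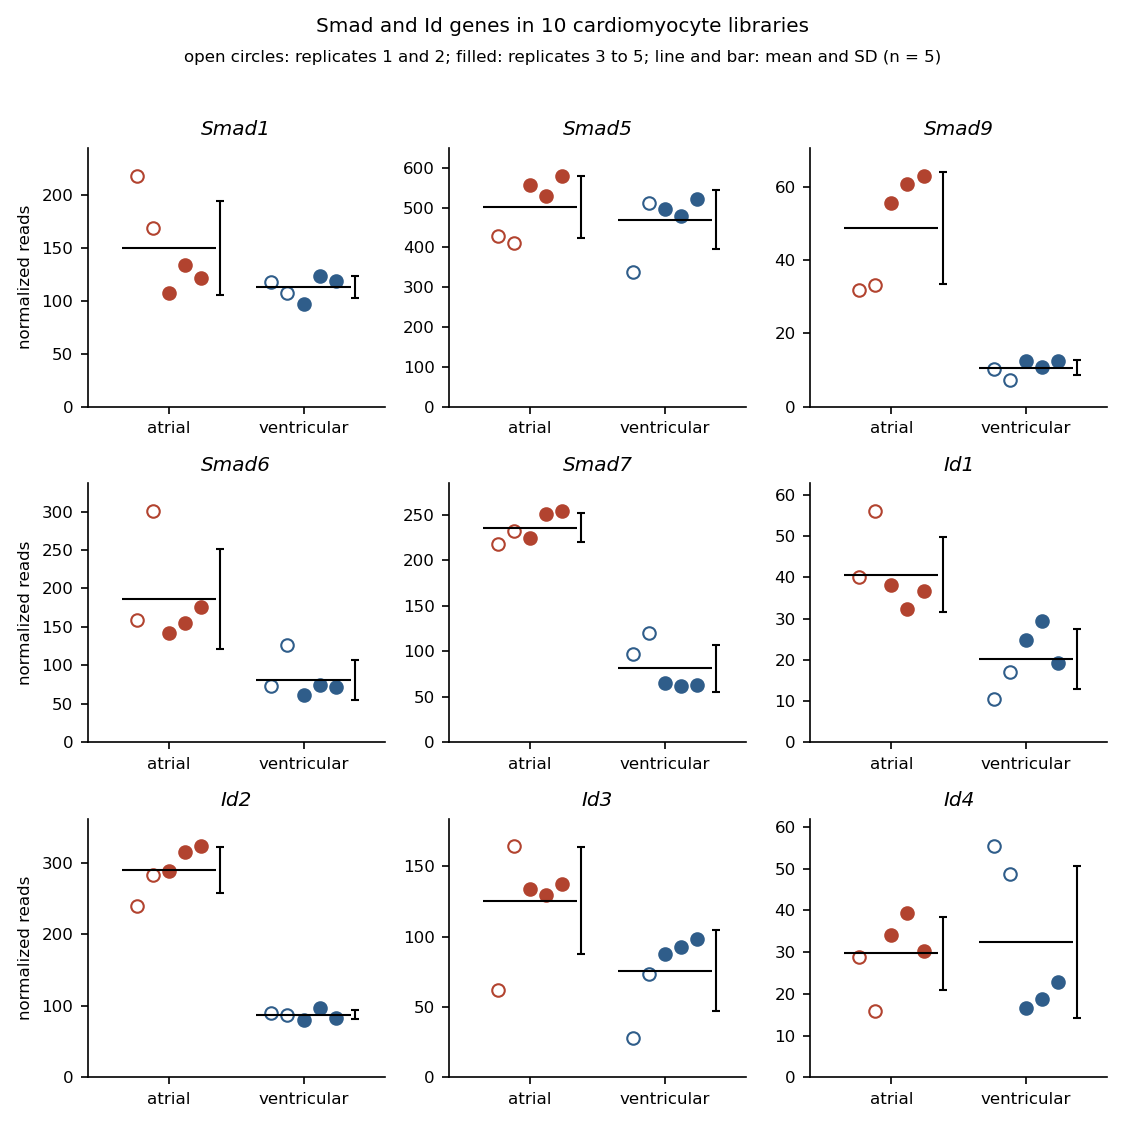
Normalized reads (y axes, each from 0) of the 9 genes in each atrial and ventricular library, with the mean and SD of each chamber (n = 5). For Smad9, Smad6, Smad7, Id1 and Id2 every atrial value lies above every ventricular one, and for Id4 the open circles of replicates 1 and 2 and the filled circles of replicates 3 to 5 order the chambers in opposite ways.

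In each chamber replicates 1 and 2 form a set apart from replicates 3 to 5, a split which the labels do not name and which read depth and ribosomal RNA set apart. Recovered reads per library ranged from 1790402 to 4445287 in replicates 1 and 2 and from 11163805 to 12842635 in replicates 3 to 5. The ribosomal RNA precursor Rn45s took 0.215% to 0.480% of reads in the first set and 23.1% to 29.8% in the second. Marker genes followed the labels. All 7 atrial cardiomyocyte markers were called toward atrial cells and all 5 ventricular ones toward ventricular cells. The summed level of 9 general cardiomyocyte markers was 334845 to 817891 normalized reads in atrial and 398236 to 742529 in ventricular libraries. Of these 9, 2 were called toward ventricular cells (22.2%, beside 6.56% of all genes tested) and none toward atrial cells, with a median log2 difference of -0.28. With the replicate number as a block 5 were called toward ventricular cells, beside 16% of all genes tested. Genes of other heart cells were also present, and their values stand beside the results that they move with.

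Among the receptor-activated Smads, which relay the signal from the receptor, Smad9 alone was called different between the chambers. Smad9 (also called Smad8; ENSMUSG00000027796, chromosome 3, 54755582 to 54801257, GRCm38) stood at 31.7, 33.1, 55.7, 60.7 and 63.1 normalized reads in atrial replicates 1 to 5. In ventricular replicates 1 to 5 it stood at 10.4, 7.31, 12.4, 10.7 and 12.4. The lowest atrial value was thus above the highest ventricular one, and within each chamber replicates 1 and 2 were the low libraries. The atrial mean was 48.9 ± 15.3 and the ventricular mean 10.6 ± 2.07 (SD, n = 5), a fold of 4.60 and a log2 difference of 2.06 ± 0.27 (SE; limma, adjusted p = 0.000456). Few reads stand behind the ventricular level: 3 in replicate 1 and 3 in replicate 2, where the exact 95% Poisson interval of 3 reads is 0.619 to 8.77 reads, and 16 to 20 in each of replicates 3 to 5. Such intervals describe counting error alone, because the libraries carry no molecular identifiers that would tell molecules from copies.

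Smad1 and Smad5, the other receptor-activated Smads, were not called over all libraries. Smad5 (ENSMUSG00000021540, chromosome 13, 56703010 to 56742377) measured 429, 410.2, 558, 529 and 581 normalized reads in atrial replicates 1 to 5 and 339, 512, 498, 479 and 521 in the ventricular ones. The chambers overlapped widely, and the lowest value of all was ventricular replicate 1. The log2 difference of Smad5 was 0.10 ± 0.15 (limma, adjusted p = 0.793), with a 95% interval of -0.24 to 0.44. Smad1 (ENSMUSG00000031681, chromosome 8, 79338395 to 79399518) measured 218, 168, 107, 133 and 121 in atrial and 118, 107, 97.3, 124 and 119 normalized reads in ventricular libraries. Atrial replicates 1, 2 and 4 stood above all ventricular libraries, whereas atrial replicates 3 and 5 lay within the ventricular range. The log2 difference of Smad1 over all libraries was 0.36 ± 0.19 (limma, adjusted p = 0.273), with a 95% interval of -0.058 to 0.78. Without atrial replicate 1 the difference of Smad1 was 0.21, and with any 1 library left out it ranged from 0.21 to 0.47 and was not called.

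Both inhibitory Smads were higher in atrial cells. Smad7, which blocks the type I receptor and recruits ubiquitin ligases to it (ENSMUSG00000025880, chromosome 18), stood at 218, 232, 224, 251 and 254 normalized reads in atrial replicates 1 to 5. In the ventricular replicates it stood at 96.9, 119, 65.1, 61.5 and 63.0. Atrial values lay within a narrow band, and ventricular replicates 1 and 2 were above ventricular replicates 3 to 5. The means were 236 ± 16.1 and 81.2 ± 25.9 (SD, n = 5), a fold of 2.91 and a log2 difference of 1.58 ± 0.19 (limma, adjusted p = 0.000324).

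Smad6, which acts mainly against BMP-type receptors and receptor-activated Smads (ENSMUSG00000036867, chromosome 9, 63953076 to 64022059), measured 159, 301, 143, 155 and 176 normalized reads in atrial replicates 1 to 5. It measured 72.7, 127, 60.7, 74.2 and 71.7 in the ventricular ones. Replicate 2 was the highest library in both chambers, and no ventricular value reached the lowest atrial one. The atrial mean of Smad6 was 187 ± 65.0 and the ventricular mean 81.2 ± 26.0 (SD, n = 5), a fold of 2.30 and a difference of 1.18 ± 0.24 on the log2 scale (limma, adjusted p = 0.00768). Without replicate 2 of both chambers, an alternative chosen after the data were seen, the log2 difference of Smad6 was 1.17 (limma, adjusted p = 0.000597).

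The Id genes differed from each other in their chamber pattern. Id2 (ENSMUSG00000020644, chromosome 12, 25093799 to 25097140), a regulator of helix-loop-helix factors in many lineages, had the smallest p of the 9 genes. It stood at 240.0, 284, 289, 315 and 323 normalized reads in atrial and at 90.0, 87.7, 80.6, 96.9 and 83.4 in ventricular replicates 1 to 5. No atrial library came near the ventricular range, and the ventricular libraries lay close together. The means were 290.1 ± 32.6 and 87.7 ± 6.31 (SD, n = 5), a fold of 3.31 and a difference of 1.71 ± 0.12 on the log2 scale (limma, adjusted p = 5.02e-06).

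Id1 was also called, with a smaller margin. Id1 (ENSMUSG00000042745, chromosome 2, 152736251 to 152737410), a widely used readout of BMP signalling, measured 40.0, 56.1, 38.1, 32.4 and 36.7 normalized reads in atrial and 10.4, 17.1, 24.8, 29.4 and 19.2 in ventricular replicates 1 to 5. The chambers did not overlap, but replicate 4, the highest ventricular and the lowest atrial library, brought them close. The atrial mean was 40.7 ± 9.09 and the ventricular mean 20.2 ± 7.30 (SD, n = 5), a fold of 2.02 and a difference of 1.03 ± 0.28 on the log2 scale (limma, adjusted p = 0.0308). Ventricular replicate 1 held 3 reads of Id1 and ventricular replicate 2 held 7. The call of Id1 was lost when any 1 of 6 of the 10 libraries was left out (adjusted p up to 0.0663; atrial replicates 1, 2, 3 and 5 and ventricular replicates 2 and 5).

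Id3 (ENSMUSG00000007872, chromosome 4, 136143497 to 136145755), a close relative of Id1, measured 62.1, 164, 134, 129.7 and 137 normalized reads in atrial replicates 1 to 5. Its ventricular values were 27.7, 73.1, 87.4, 92.9 and 98.2. Replicate 1 was the lowest library in both chambers, and through it the groups overlapped, although the atrial library was the higher of each pair. Id3 averaged 125 ± 37.9 in the atrium and 75.9 ± 28.5 in the ventricle (SD, n = 5), 1.65-fold, and over all 10 libraries without a block it was not called (log2 difference 0.77 ± 0.37, limma, adjusted p = 0.216). Without ventricular replicate 1, which held 8 reads of Id3, the difference was 0.45, and with any 1 library left out it ranged from 0.45 to 1.01 and was not called. With the replicate number as a block Id3 was called (limma, adjusted p = 0.00426). It was also called without replicate 1 of both chambers (log2 difference 0.68, adjusted p = 0.00936), an alternative chosen after the data were seen. With the library set, replicates 1 and 2 or 3 to 5, as a term Id3 was not called (limma, adjusted p = 0.0693). In the model of both sets it was called within neither (adjusted p = 0.0926 and 0.357). Fitted on their own, replicates 3 to 5 gave a call (adjusted p = 5.05e-05) and replicates 1 and 2 did not (0.396). With the block 6 of the 9 genes were called toward atrial cells, where 16.3% of all genes tested were.

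Id4 (ENSMUSG00000021379, chromosome 13, 48261228 to 48266026) did not differ in 1 direction. It measured 29.0, 15.8, 34.1, 39.5 and 30.2 normalized reads in atrial and 55.4, 48.7, 16.7, 18.7 and 22.9 in ventricular replicates 1 to 5. Ventricular replicates 1 and 2 held the highest values and ventricular replicates 3 to 5 lay below every atrial library except atrial replicate 2. The log2 difference over all libraries was -0.012 ± 0.38 (limma, adjusted p = 0.991), with a 95% interval of -0.85 to 0.83. An antisense gene, A330033J07Rik, overlaps Id4 and averaged 1.71 normalized reads against 31.1 for Id4, and the strand setting of the counting is not given in the sources used here.

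Split by library set, Id4 changed direction, and in replicates 1 and 2 the Smad5 difference was 0.0099 ± 0.16 (limma, adjusted p = 0.973), with an atrial mean of 419.6 and a ventricular mean of 425 normalized reads. In a model with chamber and library set, 6 genes were called toward atrial cells within replicates 1 and 2, where 14.1% of all genes tested were, and Id4 toward ventricular cells, where 12.1% were. Within replicates 3 to 5, 5 genes were called toward atrial cells, where 13.3% of all genes tested were, and none toward ventricular cells, where 13.6% were. Smad9, Smad6, Smad7 and Id2 were called toward atrial cells in both sets. Id1 differed by 1.76 ± 0.32 in replicates 1 and 2 (limma, adjusted p = 0.00261) and by 0.55 ± 0.26 in replicates 3 to 5 (adjusted p = 0.156). For Smad1 these values were 0.77 ± 0.18 (adjusted p = 0.0111) and 0.09 ± 0.15 (adjusted p = 0.723). The difference between the sets was itself not called for Id1 (adjusted p = 0.128) or Smad1 (adjusted p = 0.134).

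In 2 of the 9 genes the size of the chamber difference depended on the set, as it did in 5.21% of all genes tested. Smad7 differed by 1.06 ± 0.14 in replicates 1 and 2 and by 1.93 ± 0.12 in replicates 3 to 5 (limma interaction -0.87 ± 0.18, adjusted p = 0.0251), with the same direction in both. Its atrial means were 225 and 243 normalized reads in the 2 sets and its ventricular means 108 and 63.2. Id4 differed by -1.24 ± 0.31 in replicates 1 and 2 (adjusted p = 0.0156) and by 0.80 ± 0.26 in replicates 3 to 5 (adjusted p = 0.0399), an interaction of -2.04 ± 0.40 (limma, adjusted p = 0.0192). Behind the Id4 values of replicates 1 and 2 stand 11 to 21 reads in each atrial and 16 to 20 in each ventricular library. In Smad6 the chamber difference was 1.18 in both sets, with an interaction of -0.0065 ± 0.40. Averaged over the chambers, 4 of the 9 genes differed between the sets, where 57.3% of all genes tested did. These were Smad1 and Smad7, higher in replicates 1 and 2 (log2 0.33 and 0.32, limma, adjusted p = 0.0309 and 0.0119), and Smad5 and Smad9, lower there (-0.33 and -0.63, adjusted p = 0.0185 and 0.0109). The within-set values above come from the model of both sets, which share an estimate of spread. Fitted on their own, replicates 1 and 2 gave a call toward the atrium for 1 of the 9 genes, Id2. There 3.09% of all genes were called toward the atrium and 2.04% toward the ventricle. In that separate limma fit Id4 differed by -1.24 ± 0.50 and was not called (adjusted p = 0.227). Neither were Smad1 (adjusted p = 0.167) and Id1 (adjusted p = 0.125). Replicates 3 to 5 on their own gave 8 such calls, all but Smad1, where 26.2% of all genes were called toward the atrium and 26.6% toward the ventricle.

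**Figure D2:**
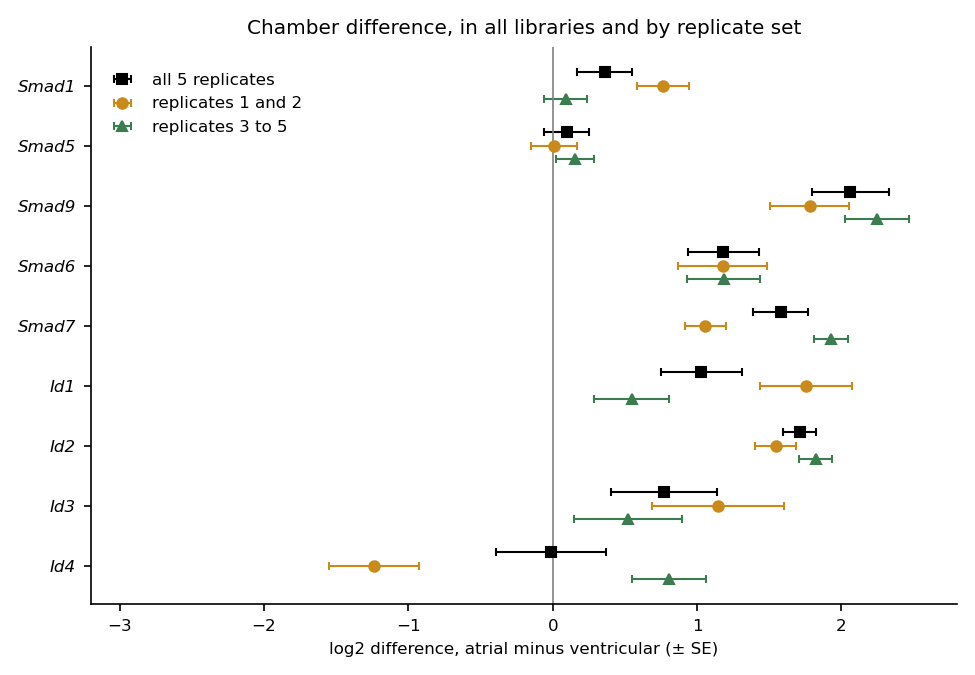
Log2 difference, atrial minus ventricular, on the log2(normalized reads + 1) scale (x axis, ± SE) of each gene in all 5 replicates, in replicates 1 and 2 and in replicates 3 to 5. Smad6 has the same difference in both sets, Smad7 a larger one in replicates 3 to 5, and Id4 lies at -1.24 in the first set and 0.80 in the second.

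Levels can be set between genes once they are divided by the length of the merged exons (GENCODE release M21). In atrial cells Id2 had the highest level, 119 ± 13.4 normalized reads per kilobase (SD, n = 5), and its values did not overlap those of Id3, the next gene (70.0 ± 21.1). From Id3 down the ranges of neighbours overlapped through Smad5 (67.6 ± 10.4), Smad6 (58.2 ± 20.3), Smad7 (52.2 ± 3.57), Id1 (35.1 ± 7.83) and Smad1 (23.9 ± 7.11). Smad9 (9.10 ± 2.84) lay below Smad1 without overlap and could not be separated from Id4 (7.72 ± 2.28). Compared within each library, Smad7 was above Id1 in all 5 atrial libraries, and the other overlapping neighbours kept their order in 2 to 4. In ventricular cells Smad5 came first at 63.3 ± 10.1 normalized reads per kilobase, followed by Id3 (42.4 ± 15.9), Id2 (36.0 ± 2.59), Smad6 (25.3 ± 8.12), Smad1 (18.0 ± 1.69), Smad7 (18.0 ± 5.73), Id1 (17.4 ± 6.29) and Id4 (8.44 ± 4.72), with overlap between each pair of neighbours. Smad9 was the lowest, at 1.98 ± 0.386, and did not overlap Id4. Within each of the 5 ventricular libraries Smad5 was above Id3 and Smad6 above Smad1, and the other overlapping neighbours kept their order in 2 to 4.

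The make-up of each family per length differed between chambers in some members. Smad9 made up 6.0% to 10.9% of the receptor-activated Smads in atrial libraries and 1.56% to 2.91% in ventricular ones, whereas Smad5 made up the largest share in each library, 58.7% to 73.3% and 68.8% to 79.0%. Within the Id family Id2 held 51.7% ± 4.44 in atrial and 35.5% ± 7.60 in ventricular libraries (SD, n = 5), and the ranges overlapped, since ventricular replicate 1 reached 48.8%. The summed level of the inhibitory Smads was 1.11 ± 0.298 times that of the receptor-activated Smads in atrial cells (range 0.917 to 1.64). In ventricular cells it was 0.527 ± 0.170 times (range 0.393 to 0.754). These shares and ratios are descriptions and were not tested.

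**Figure D3:**
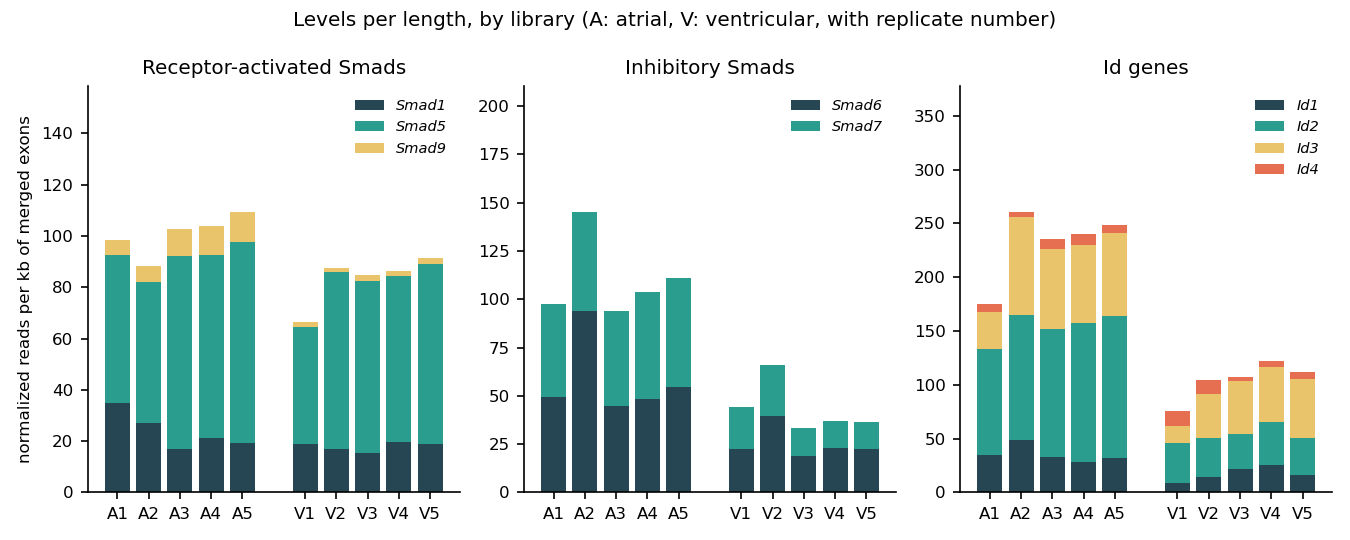
Normalized reads per kilobase of merged exons (y axes, from 0), stacked by gene, in each atrial (A) and ventricular (V) library with its replicate number. The totals of the receptor-activated Smads overlap between the chambers, with Smad5 the largest part, while each atrial total of the inhibitory Smads and of the Id genes lies above each ventricular one.

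The genes whose profile over the 10 libraries lay closest to each of these genes were found by the root mean square difference of log2 values, each centred on its own mean. For Smad7 the 3 closest were Arhgap24 (0.0953), Frem2 (0.139) and Corin (0.159), the protease that activates atrial natriuretic peptide, where the median over all genes tested was 0.934. For Id2 they were Enpep (0.153), Tmx4 (0.153) and Frmd4b (0.181). For Smad9 they were Enkur (0.241), the BMP co-receptor Hjv (0.249) and Arhgap31 (0.265). For Smad6 they were Spata13, Vmac and Usp53 (0.205 to 0.215), and for Id1 they were Meis3, Txndc5 and P3h1 (0.183 to 0.205). Among the 9 genes themselves Smad7 and Id2 were the closest pair, at 0.287, with 22 genes closer to Smad7 and 33 closer to Id2. For Id4 the nearest of the other 8 was Smad5 at 0.643, with 4446 genes closer. Smad1 and Smad5 were each nearest to the other among the 9, at 0.459, with 4687 genes closer to Smad1 and 6496 closer to Smad5. The 10 libraries share their chamber and their library set, and how far these account for likeness was not tested.

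Other genes of the pathway were taken from 7 lists of ligands, receptors, modulators and targets. These lists were also chosen with earlier results of these data known, so their shares beside those of all genes are descriptions. The lists hold 96 symbols, of which 94 were in the tables and 69 passed the filter on low values. Of these 69, 10 were called toward the atrium and 2 toward the ventricle (limma), 14.5% and 2.90%, beside 8.12% and 6.56% of all genes tested. Their median log2 difference was 0.19. With the replicate block 21 were called toward the atrium and 10 toward the ventricle, beside 16.3% and 16% of all genes tested, and with the library set as a term 18 and 11 were, beside 16% and 15.8%. The 25 symbols below the filter, with at most 23.0 normalized reads in any library, included the antagonists Nog and Grem1 and the target genes Msx1 and Msx2.

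Among 8 tested BMP-type ligands 2 were called toward the atrium and 1 toward the ventricle (25% and 12.5%, beside 8.12% and 6.56% of all genes tested). Bmp10, a cardiac BMP, averaged 4839 ± 1943 normalized reads in the atrium against 76.3 ± 63.0 in the ventricle (SD, n = 5; log2 difference 6.26 ± 0.50, limma, adjusted p = 1.52e-05). Bmp5 averaged 237 ± 39.0 and 80.9 ± 34.5 (log2 difference 1.62 ± 0.25, limma, adjusted p = 0.00161). Bmp7 went the other way, with 163 ± 9.33 against 317 ± 58.9 (log2 difference -0.93 ± 0.14, adjusted p = 0.000959). Bmp4, Bmp6 and Gdf6 were not called, with log2 differences of 0.75, 0.32 and -1.42, and with the replicate block Gdf6 was (adjusted p = 0.0134).

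Receptors for these ligands gave different counts with and without the replicate block. Of 11 tested receptors and co-receptors 1 was called without it (9.09% toward the atrium, beside 8.12% of all genes tested), the co-receptor Hjv (hemojuvelin). Hjv averaged 362 ± 134 normalized reads in the atrium against 112 ± 19.6 in the ventricle (SD, n = 5; log2 difference 1.61 ± 0.26, limma, adjusted p = 0.00202). The type I receptor Bmpr1a averaged 1537 ± 122 against 1759 ± 60.9 (log2 difference -0.20 ± 0.09, adjusted p = 0.210), although its values did not overlap between the chambers. With the library set as a term Bmpr1a was called toward the ventricle (limma, adjusted p = 0.0407), and with the replicate block it was not (0.0678). It differed by -0.36 in replicates 1 and 2 (limma, adjusted p = 0.00728) and by -0.092 in replicates 3 to 5 (0.339). The type II receptors Bmpr2 and Acvr2a had log2 differences of 0.41 and 0.32 (adjusted p = 0.428 and 0.224) and were called with the replicate block (adjusted p = 0.00818 and 0.0184). With the library set as a term they were not called (limma, adjusted p = 0.0759 and 0.0729). With the block 4 receptors and co-receptors were called toward the atrium, where 16.3% of all genes tested were. Acvr2b (log2 difference 0.65, adjusted p = 0.0254) and Hjv were the others. Acvr2b was not called with the library set term (limma, adjusted p = 0.110). Toward the ventricle, where 16% of all genes tested were called, the block gave 2 calls. These were the co-receptor Rgma (-1.26, adjusted p = 0.000248) and the type I receptor Acvrl1 (-1.16, adjusted p = 0.0285). Acvrl1 differed by -0.15 in replicates 1 and 2 (adjusted p = 0.665) and by -1.83 in replicates 3 to 5 (limma interaction 1.68, adjusted p = 0.0102).

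Of 10 tested antagonists and modulators outside the cell 3 were called, each toward atrial cells (30%, beside 8.12% of all genes tested). Chrdl1, a chordin-like BMP antagonist, averaged 69.9 ± 31.9 against 21.4 ± 9.36 normalized reads (log2 difference 1.64 ± 0.41, limma, adjusted p = 0.0209). Tll1, a protease that cleaves chordin and so frees BMPs, differed by 1.88 ± 0.31 (adjusted p = 0.00213). Twsg1, which binds BMPs together with chordin, differed by 0.48 ± 0.12 (adjusted p = 0.0211). The most abundant gene of the list, Fstl1, had a log2 difference of -0.43 ± 0.23 (adjusted p = 0.276), and Bmp1 and Crim1 differed by 0.19 and 0.13.

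Inside the cell, Smad4, the shared partner, and Smad2 and Smad3, which serve TGF-beta, had log2 differences of 0.28, 0.25 and -0.063 and were not called (adjusted p = 0.205, 0.213 and 0.826). With the replicate block Smad4 and Smad2 were called (adjusted p = 0.0409 and 0.0385). With the library set as a term Smad4 was called and Smad2 was not (limma, adjusted p = 0.0367 and 0.0611). Of 24 tested regulators of Smads, 2 (8.33%, beside 8.12% of all genes tested) were called toward atrial cells, the ubiquitin ligase Nedd4l (0.91 ± 0.18, limma, adjusted p = 0.00691) and the repressor Skil (0.41 ± 0.11, adjusted p = 0.0274). Ywhae, Usp9x and Usp15, the most abundant of this list, were not called, with log2 differences of -0.31, 0.06 and -0.013, and with the block Ywhae was called (adjusted p = 0.00446). With the block 7 of the 24 regulators were called toward the atrium and 2 toward the ventricle, beside 16.3% and 16% of all genes tested. The latter were Ywhae and the phosphatase Ppm1a (-0.28, adjusted p = 0.00849).

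Of 11 other genes known to be induced by BMPs in some tissues, 3 were called toward atrial cells (27.3%, beside 8.12% of all genes tested), Skil among them. Atoh8, a helix-loop-helix factor, averaged 95.1 ± 13.3 normalized reads in the atrium against 26.1 ± 5.38 in the ventricle (SD, n = 5; log2 difference 1.84 ± 0.18, limma, adjusted p = 7.03e-05). The repressor Hey1 averaged 85.7 ± 24.8 against 22.8 ± 8.60 (log2 difference 1.90 ± 0.28, adjusted p = 0.00101). The cardiac factors Tbx20, Gata4 and Nkx2-5 were not called, with log2 differences of 0.80, -0.19 and 0.22, and with the block Tbx20 was (adjusted p = 0.000130). The block gave 5 calls toward the atrium and 1 toward the ventricle in this list, beside 16.3% and 16% of all genes tested.

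Of 5 tested helix-loop-helix factors with which Id proteins or their E protein partners pair, 1 was called, toward ventricular cells (20%, beside 6.56% of all genes tested). The E protein gene Tcf4 averaged 323 ± 61.3 normalized reads in the atrium against 765 ± 241 in the ventricle (SD, n = 5; log2 difference -1.20 ± 0.23, limma, adjusted p = 0.00552). The other E protein genes, Tcf3 and Tcf12, had log2 differences of 0.059 and -0.20 (adjusted p = 0.858 and 0.551). Hand2, a cardiac helix-loop-helix factor, differed by -0.90 ± 0.37 (adjusted p = 0.142; 8.92e-05 with the replicate block). With the block 3 of the 5 were called toward the ventricle and none toward the atrium, beside 16% and 16.3% of all genes tested.

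**Figure D4:**
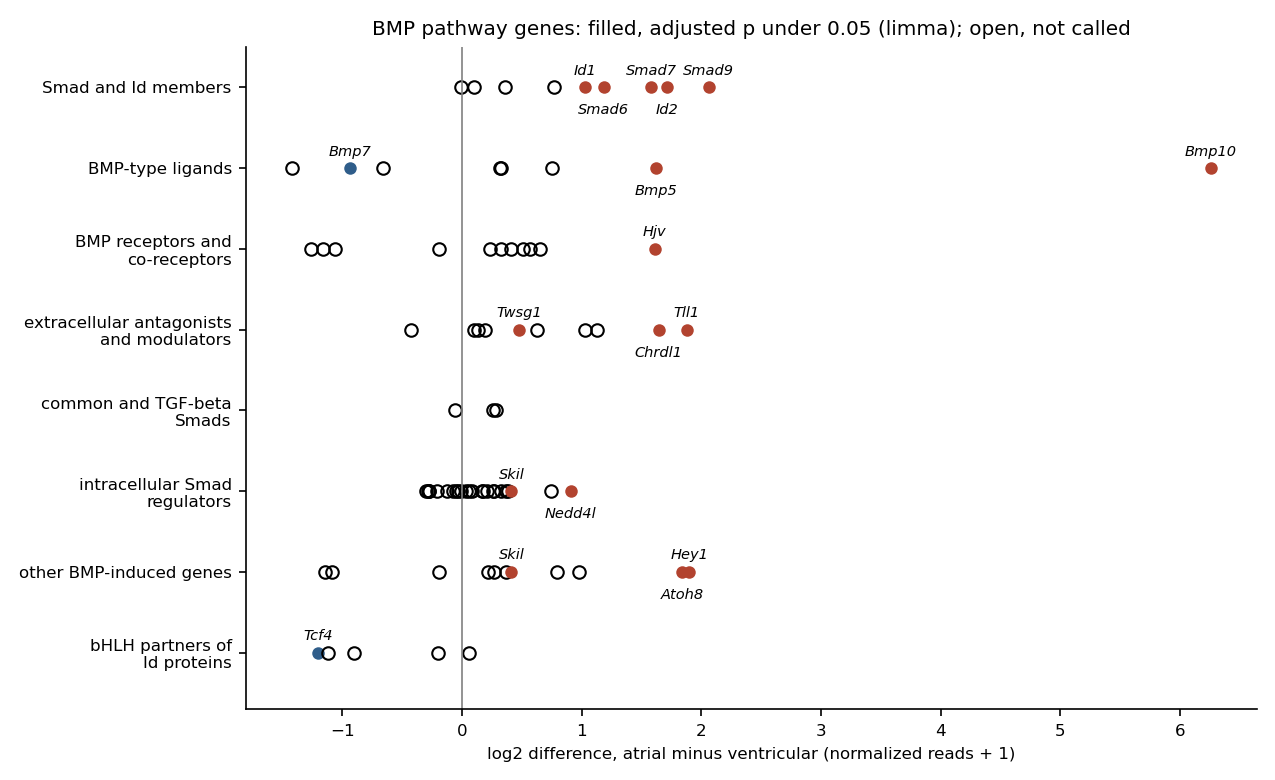
Log2 difference, atrial minus ventricular (x axis, log2 of normalized reads + 1), of each tested gene of the Smad and Id families and of 7 lists of BMP pathway genes, 1 row for each list. Filled circles passed the limma test (red toward atrial, blue toward ventricular) and open circles did not. Bmp10 lies far to the right of all others, and most receptors and regulators are open circles.

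Id1, Id3 and Smad6 are known to be strongly expressed in endothelial cells as well, and in bulk libraries fewer cells of a type and less RNA per cell cannot be told apart. Of 12 endothelial and endocardial markers, 3 were called toward atrial cells (Kdr, Npr3 and Tek; 25%, beside 8.12% of all genes tested), with a list median of 0.73. With the replicate block 5 were, beside 16.3% of all genes tested. The log2 difference was negative and not called for 5 of the 12, Cdh5 (-0.87), Erg (-0.87), Flt1 (-0.86), Pecam1 (-0.48) and Nfatc1 (-0.19). In replicates 3 to 5 Pecam1 averaged 4.56 normalized reads in the atrium against 12.1 in the ventricle, and Flt1 5.13 against 23.0. Npr3, Tek and Kdr were the most abundant of the list, at 866, 537 and 336 normalized reads in the atrium against 229, 282 and 122. The summed level of all 12 was 1287 to 5001 normalized reads in atrial and 344 to 1827 in ventricular libraries, ranges that overlap. The library with the highest endothelial sum of each chamber was replicate 1, which had the lowest Id3 value of its chamber. Atrial replicate 2, with the highest values of Smad6, Id1 and Id3 of all libraries, had the lowest endothelial sum of the atrial libraries.

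Epicardial markers moved with the chamber more plainly. Of 7 tested, 6 were called toward atrial cells (85.7%, beside 8.12% of all genes tested), with a median of 2.11. Their summed level was 2771 to 6662 in atrial and 419 to 2736 normalized reads in ventricular libraries. The atrial and ventricular sums did not overlap, and atrial replicate 2 had the highest. Replicate 1, with the lowest Id3 value of each chamber, also had the lowest epicardial sum of each chamber. The sums were 2771, 6662, 5435, 5273 and 5275 in atrial and 419, 987, 1958, 2736 and 2400 in ventricular replicates 1 to 5. The lowest Smad6 value of each chamber was in replicate 3, and the lowest atrial Id1 value in replicate 4. In the ventricle Id1 was lowest in replicate 1 (10.4 normalized reads) and highest in replicate 4 (29.4), as the epicardial sum was. Of 10 fibroblast markers 1 was called toward the atrium and 2 toward the ventricle (10% and 20%, beside 8.12% and 6.56% of all genes tested). Their sum was 22504 to 37677 in atrial and 9573 to 66110 normalized reads in ventricular libraries. Replicate 1 had the lowest fibroblast sum of each chamber as well, and ventricular replicate 4 the highest of the ventricle. Of 9 smooth muscle and pericyte markers 4 were called toward ventricular cells (44.4%, beside 6.56% of all genes tested), with sums of 2414 to 7484 in atrial and 11917 to 17978 in ventricular libraries. Of the 3 tested markers each of immune cells and of Schwann cells and neurons, 1 was called toward atrial cells (33.3%, beside 8.12% of all genes tested). The immune sum was at most 178 in any library. No listed marker in the tables was at 0 in all libraries. The part of these cells in the Smad and Id differences was not tested.

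**Figure D5:**
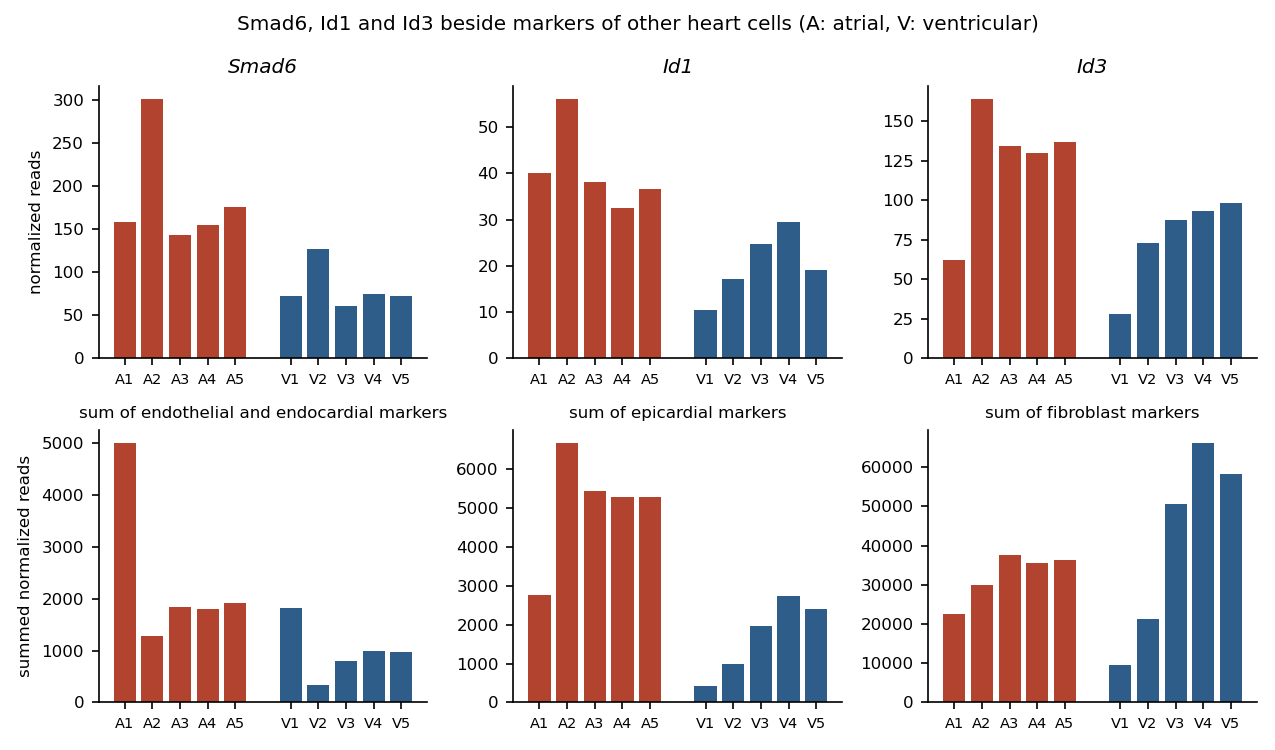
Upper row, normalized reads of Smad6, Id1 and Id3 in each atrial (A) and ventricular (V) library. Lower row, summed normalized reads of endothelial and endocardial, epicardial and fibroblast markers in the same libraries, all y axes from 0. Atrial replicate 2 has the highest Smad6, Id1 and Id3 and the highest epicardial sum, but the lowest atrial endothelial sum.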

How the data were processed

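The 5 atrial and 5 ventricular cardiomyocyte libraries were made from RNA with the ScriptSeq v2 kit, per the labels' protocols. Trimmomatic, HISAT2 and featureCounts were used on GRCm38 (mm10), per the submitters' processing notes. Which annotation and strand setting were used is not given in the sources used here. Each library's deposited signal is its reads for every symbol after DESeq2 normalization, per the file headers. Every value was a whole multiple of the library's smallest step (tolerance 0.01, 100% of values), which gave back the reads.

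The filter was a mean over the 10 libraries of 10 normalized reads or more, passed by 12422 of 25239 symbols and all 9 members. These were tested with limma 3.58.1 (R 4.3.3, trend and robust, two-sided) on log2(value + 1), Benjamini-Hochberg at 0.05. The script was tested on simulated data. Positions and exon lengths are from GENCODE M21 (GRCm38), sequences from RefSeq. edgeR 4.0.16 and DESeq2 1.42.0 were run on the recovered reads as alternatives, besides other pseudocounts, filters and scalings, a library set term, the replicate block and leaving out libraries. Same-numbered libraries deviated from their chamber's mean together (correlation 0.556 to 0.637 over 5 pairs). The replicate number was therefore used as a block in an alternative fit. Within the library sets the values were 0.405 for replicates 1 and 2 and -0.039 to 0.068 for replicates 3 to 5. Pairing within replicates 3 to 5 is thus not shown, and the block also takes up the difference between the sets. Named pathway genes were those called and the 3 most abundant not called of each list. Acvr2b, Rgma, Acvrl1 and Ppm1a lie outside this rule and were named for their calls with the block. For likeness the 3 closest genes to each member were taken. The members and lists were chosen with earlier results of these data known.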

Additional observations from a re-analysis of the deposited data

Results flagged for a closer look

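The chamber difference was unequal between replicates 1 and 2 and replicates 3 to 5 (limma interaction) for Smad7 (-0.87, adjusted p = 0.0251) and Id4 (-2.04, adjusted p = 0.0192). Among 33 pathway genes named by the rule above it was unequal for Bmp4 (1.96, adjusted p = 0.0172), Hjv (-0.65, adjusted p = 0.0498) and Fstl1 (1.21, adjusted p = 0.00950). Acvrl1, named outside that rule, was also unequal (1.68, adjusted p = 0.0102).

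One library stood apart from the other 4 of its chamber in 11 of 84 groups of 5 checked, where chance gives about 1 in 20. Among the Smad and Id genes these were Smad6 in atrial replicate 2 (301 normalized reads) and in ventricular replicate 2 (127), and Smad5 in ventricular replicate 1 (339). Among pathway genes, atrial replicate 2 stood apart in Bmpr2 (656, low), Tll1 (286), Atoh8 (118) and Hey1 (128), and atrial replicate 1 in Fstl1 (5154) and Nedd4l (1604). Ventricular replicate 1 stood apart in Acvr2a (412) and Smad3 (259, low). All 11 were replicate 1 or replicate 2, the libraries of lower depth.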

How the results depend on the processing

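Each member was recomputed under 24 alternatives, 2 of them, without replicate 1 or without replicate 2 of both chambers, chosen after the data were seen. Id2 was called toward atrial cells in all 24 (1.54 to 1.82), and Smad9 (1.75 to 2.25), Smad6 (0.996 to 1.35) and Smad7 (1.06 to 1.93) in all but replicates 1 and 2 alone (adjusted p = 0.179, 0.156 and 0.0550), which has fewer samples. Id1 kept its direction (0.55 to 1.76) and lost its call in 9, among them replicates 1 and 2 alone (adjusted p = 0.125), no filter on low values (0.0532) and without replicate 2 of both chambers (0.105). Id4 turned positive in replicates 3 to 5 alone (0.80), with equal totals (0.050; 0.046 without ribosomal RNA symbols), with edgeR (0.044) and DESeq2 (0.0091), and without replicate 1 (0.21) or replicate 2 (0.38) of both chambers; leaving out 1 library gave -0.20 to 0.22. Smad5 gave -0.016 to 0.17 with 1 library left out, negative without ventricular replicate 1, and was called in replicates 3 to 5 alone (0.15, adjusted p = 0.0359). Members called toward atrial cells numbered 1 in replicates 1 and 2 alone (3.09% of all genes) and 8 in replicates 3 to 5 alone (26.2%), and 4 to 5 with 1 library left out. Of the 69 pathway genes, 21 and 10 were called toward atrial and ventricular cells with the replicate block (16.3% and 16% of all genes). With the library set term 18 and 11 were (16% and 15.8% of all genes). In replicates 3 to 5 alone 26 and 20 were (26.2% and 26.6% of all genes). In replicates 1 and 2 alone 6 were called toward the atrium (3.09% of all genes). Ventricular calls were 4 with edgeR (7.37% of all genes), 7 with DESeq2 (9.84%) and 4 without replicate 1 of both chambers. With 1 library left out the atrial and ventricular calls of pathway genes were 7 to 12 and 2 to 4, with 4 ventricular calls without atrial replicate 1 and without ventricular replicate 1. For fits that leave out single libraries or a replicate number, the share of all genes was not counted. Id3 (0.45 to 1.01) and Smad1 (0.21 to 0.47) were not called with any 1 library left out. The replicate block changed the call of no member other than Id3. The causes of these changes were not tested. Depth limits Smad9, Id1, Id3 and Id4, with 3 to 30 reads in each ventricular library of replicates 1 and 2; a count of 0 allows up to 3 reads, 1.70 to 10.4 normalized reads depending on the library.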
